A study of Danio rerio with 2 samples.

Results

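Megabase windows of the zebrafish genome in which the peaks found in a single list were mostly MYC peaks were examined in neuroblastoma cells of MYC and MYCN transgenic fish. Chromosomes 1 to 25 were cut into windows of 1 Mb from position 0, and each peak was placed by its midpoint. A peak that overlapped no peak of the other list was list-only, that is MYC-only or MYCN-only, and any other peak was shared. A window was kept, and is said below to lean to MYC, when it held 10 or more list-only peaks of which at least 85% were MYC-only. The windows were thus chosen by the peak calls of these same libraries, so the counts of list-only peaks in them are a description and carry no test. The rule kept 112 windows, 8.27% of the 1354 windows with enough list-only peaks and 8.18% of all 1369 windows that held a peak. They held 12894 of the 146395 peaks of both lists, 7780 from the MYC list and 5114 from the MYCN list.

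The MYC group was 1 ATAC-seq library of tumour cells from MYC transgenic zebrafish, and the MYCN group was 1 library of tumour cells from MYCN transgenic zebrafish. In both groups the cells came from tumours dispersed mechanically and were sorted for EGFP from a dbh:EGFP reporter, with 50000 cells per library. In such a reporter, regulatory sequence of the gene for dopamine beta-hydroxylase drives EGFP, so the sort aims at cells of noradrenergic type in the whole tumour. The labels give neither the age and number of the fish, nor the strain, nor the promoter of the MYC or MYCN transgene. With 1 library per transgene there is no replicate, and each difference below compares these libraries, not the transgenes.

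In ATAC-seq the Tn5 transposase inserts adapters where DNA is free of tightly packed nucleosomes, and a peak marks a place where insertions pile up. Such places are mostly promoters, enhancers and other sites where transcription factors bind. MYC and MYCN are related basic helix-loop-helix factors that bind E-box DNA with the partner MAX, mainly in chromatin that is already open. Open sites lie in larger domains of active and inactive chromatin that can span many kilobases, so neighbouring sites often open and close together. Genes, sequences and cell markers of the build danRer7 were not used here, so the windows are described by position, and the labelled cell type was not checked against marker genes.

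The lists held 77834 MYC peaks and 68556 MYCN peaks on the 25 chromosomes, of which 22517 and 12625 were list-only. Peak lists hold no read counts, so depth is not known for either library, and a deeper library yields more weak peaks. A window's lean says on which side peaks passed the calling limit, and a site without a peak may still have been open. Intervals in brackets are 95% Wilson intervals, which cover counting error only.

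The leaning windows differed from the others in list-only peaks of both kinds, with more MYC-only and fewer MYCN-only peaks, while shared peaks were about as dense. Of their 3449 list-only peaks, 3088 were MYC-only and 361 were MYCN-only. The MYC-only share was 89.5%, against 64.1% over all windows and 61.3% over the other 1257 windows, an order that the rule fixes. A leaning window held 27.6 MYC-only peaks on average and another window held 15.5, a ratio of 1.78. For MYCN-only peaks the averages were 3.22 in leaning windows and 9.76 in other windows, a ratio of 0.33. Shared MYC peaks averaged 41.9 per leaning window and 40.3 per other window, and shared MYCN peaks averaged 42.4 and 40.7. Shared peaks of either list were thus 1.04 times as dense in leaning windows as in the others. The leaning windows held 13.7% of all MYC-only peaks, 2.86% of all MYCN-only peaks and 8.48% of all shared MYC peaks. How many windows leaned depended on the settings. When a shared peak needed a reciprocal overlap of 50%, 14 were kept, all of them among the 112. Trimming the MYC list by score to the length of the MYCN list kept 36. These were also among the 112, but trimming cannot raise a window's MYC-only share. A one-to-one pair that fails the reciprocal overlap adds a list-only peak to each side, which lowers a share above 50%. That both sets lay among the 112 was thus close to fixed in advance.

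**Figure D1:**
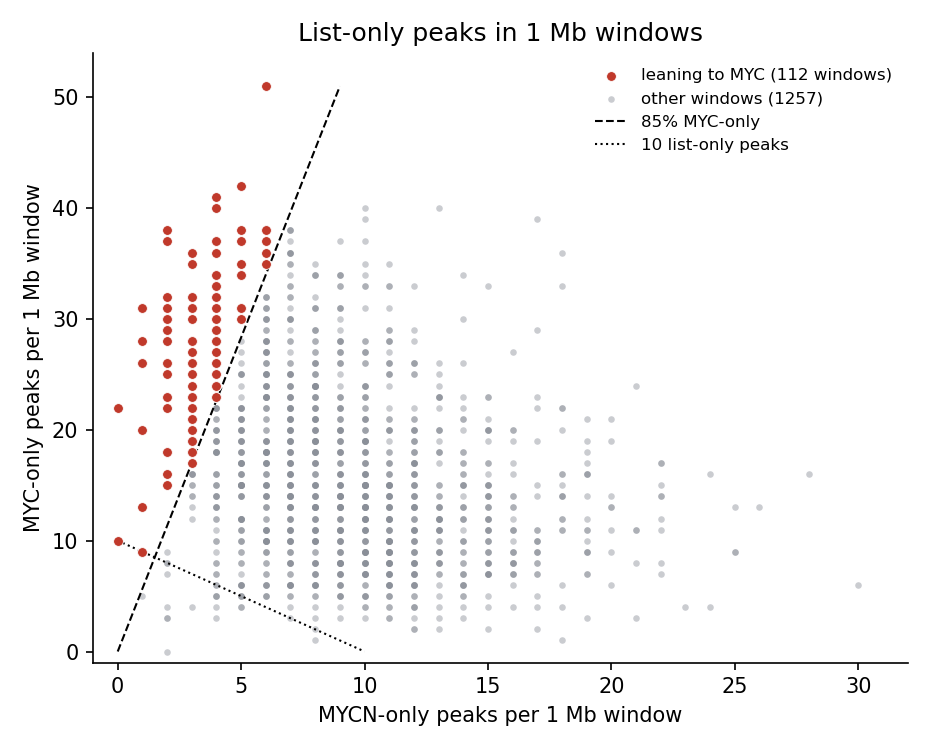
Number of MYC-only peaks (vertical axis) against number of MYCN-only peaks (horizontal axis) in each 1 Mb window, with the 112 windows leaning to MYC in red and the other 1257 windows in grey. The dashed line marks a MYC-only share of 85% and the dotted line marks 10 list-only peaks. The red windows hold 9 to 51 MYC-only and 0 to 6 MYCN-only peaks.

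Counting all peaks, the MYC list had the larger number in each of the 112 windows, against 855 of the other 1257 (68.0%). Shared peaks in leaning windows were close in number, 4692 in MYC and 4753 in MYCN. The rule thus largely sets this count and the ratio of peak numbers below, and it also bears on the covered bases. The medians were 70 MYC peaks (range 17 to 103) and 46.5 MYCN peaks (range 9 to 73) per leaning window. MYC peaks were 1.52 times as many as MYCN peaks in the leaning windows and 1.104 times as many in the others. The bases covered by peaks came to 27.1 kb per leaning window in MYC and 16.9 kb in MYCN, a ratio of 1.60, against 21.9 kb and 18.9 kb in the other windows, a ratio of 1.16. MYCN-only peaks were not absent. Only 2 of the 112 windows had 0 of them, 33 windows had 3, 33 windows had 4 and 6 windows had 6.

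The window with the most list-only peaks of all 1369 lay at the start of chromosome 5, at 0 to 1 Mb. Its list-only peaks were 51 on the MYC side and 6 on the MYCN side. It held 80 MYC and 36 MYCN peaks in all. In the 41 to 42 Mb window of chromosome 7 there were 42 MYC-only and 5 MYCN-only peaks, and in the 27 to 28 Mb window of chromosome 24 there were 41 and 4. The 57 to 58 Mb window of chromosome 16 had 40 and 4, and the 53 to 54 Mb window of chromosome 6 had 38 and 5. These windows were dense in MYC peaks. Outside chromosome 5 they held 47 to 60 MYCN peaks each, around the median of 50 over all windows. The same number of list-only peaks, 38 MYC-only and 6 MYCN-only, was found in the 13 to 14 Mb window of chromosome 3 and in the 29 to 30 Mb window of chromosome 23. The remaining 3 of the leading 10 were the 34 to 35 Mb window of chromosome 7 with 37 and 6, the 12 to 13 Mb window of chromosome 4 with 37 and 5, and the 33 to 34 Mb window of chromosome 13 with 36 and 6. In all 10 the shared peaks numbered between 29 and 56 in MYC, so the extra MYC-only sites stood among many common ones.

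MYC-only peaks were spread through most leaning windows and did not sit in a single cluster. The spread was not counted in other windows, so it is not shown to be particular to leaning ones. With each window divided into 10 bins of 100 kb, a median of 9 bins held a MYC-only peak, and 106 of the 112 windows had them in 8 or more bins. The fullest bin held a median of 21.9% of a window's MYC-only peaks. Without that bin, 80 windows still had a MYC-only share of at least 85%, and the median share over the 112 windows was 87.3%. The most clustered was the 60 to 61 Mb window of chromosome 2, where 9 MYC-only peaks occupied 2 bins and 88.9% of them lay in the fullest. This was the single leaning window cut short by the end of its chromosome's peaks, which ended at position 60292299, so that 3 of its 10 bins could hold a peak.

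Series of consecutive MYC-only peaks, broken by neither a shared nor a MYCN-only peak, were short in most leaning windows. The longest series per window had a median of 4 peaks and ranged from 2 to 16. The longest, of 16 peaks, lay at chr5:10481229-10717005, and its window at 10 to 11 Mb had 26 MYC-only and 3 MYCN-only peaks. In the 18 to 19 Mb window of chromosome 7 a series of 12 peaks spanned chr7:18008814-18725810, in a sparse window with 26 MYC and 11 MYCN peaks. Series of 9 peaks lay at chr7:34430405-34493343, chr7:41265391-41327964 and chr20:46014710-46340493.

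Most MYC-only peaks in leaning windows were weak, as elsewhere in the MYC list. The deposited score is the authors' own value for each peak, and it was turned into a percentile within its list, from 0 for the weakest to 100 for the strongest. MYC-only peaks had a median percentile of 26.3 in leaning windows (quartiles 12.96 and 40.8) and of 22.9 in other windows (10.7 and 38.6). In leaning windows 484 of 3088 lay above the middle of the MYC list, a share of 15.7% [14.4 to 17.0], against 12.1% [11.7 to 12.6] in other windows. The MYCN-only peaks of leaning windows had a median percentile of 21.7, equal to that in other windows, and 8.03% [5.65 to 11.3] lay above the middle of the MYCN list, against 12.5% [11.9 to 13.1]. Median widths were 261 bp for MYC-only peaks in leaning windows and 251 bp in other windows, and 231 bp and 248 bp for MYCN-only peaks. The median gap from a MYC-only peak to the nearest MYCN peak was 7.21 kb in leaning windows and 5.96 kb in other windows. No MYCN peak lay within 1 kb of 89.2% [88.1 to 90.3] of MYC-only peaks in leaning windows and of 86.0% [85.5 to 86.5] in other windows. The rule limits the MYCN-only peaks of leaning windows, so it bears on this gap and on this share.

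Strong MYC-only sites were few in leaning and other windows alike. Above the percentile of 90 in the MYC list lay 5 of 3088 in leaning windows and 22 of 19429 in other windows. The highest-scoring in leaning windows lay at chr19:33576486-33577282, was 797 bp wide and had a percentile of 98.4. The second lay at chr21:3309794-3310371 with a percentile of 97.9, and the third at chr16:40014729-40015154 with 96.6. The next were chr7:39298731-39299162 with 92.4 and chr14:33075378-33075777 with 91.6. The chromosome 7 site was the only one of the 10 highest-scoring with a MYCN peak within 1 kb, at 828 bp. The other 5 of those 10 had percentiles of 85.3 to 89.3. They lay at chr10:29217163-29217533, chr16:40429212-40429640, chr16:38004875-38005538, chr5:946153-946647, and chr14:33443110-33443571. Chromosome 16 thus held 3 of the 10, all between 38 and 41 Mb, and 9 of the 112 leaning windows. So small a count is not read as a concentration.

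Single sites ran against the lean of their windows. The highest-scoring MYCN-only peak in a leaning window lay at chr19:33446786-33447361, with a percentile of 96.7 in the MYCN list. It shared its window with the strongest MYC-only peak named above. The next lay at chr16:45795537-45796135 with a percentile of 88.2 and at chr5:10427170-10427496 with 81.8. Chromosome 21 held the other 2 of the highest 5, at chr21:9181111-9181508 with 73.8 and chr21:19488418-19488731 with 71.4.

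Sites called in both libraries also ranked higher in the MYC list than in the MYCN list in most leaning windows. This was read from one-to-one pairs, in which a MYC peak and a MYCN peak overlapped each other and nothing else. The shift of a pair is its MYC percentile minus its MYCN percentile, so a positive shift means a higher rank in MYC. The leaning windows held 4486 pairs, and a further 206 shared MYC and 267 shared MYCN peaks were in no such pair. The MYC percentile had a median of 67.3 in leaning windows, and the MYCN percentile of the same pairs had a median of 53.1. In other windows the medians were 62.6 in MYC and 58.6 in MYCN. The median shift was 9.25 points in leaning windows (quartiles 0.14 and 23.7) and 2.01 points in other windows (quartiles -7.79 and 14.8), a difference of 7.23 points. The rank was higher in MYC for 3383 of the 4486 pairs of leaning windows, 75.4% [74.1 to 76.7], against 58.7% of all 52911 pairs and 57.1% [56.7 to 57.6] of the pairs in other windows. These ranks come from the same libraries and the same calling limit as the list-only peaks, so they are not a test of the lean. A site whose MYCN signal falls under the limit leaves the shared set and is counted as MYC-only.

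**Figure D2:**
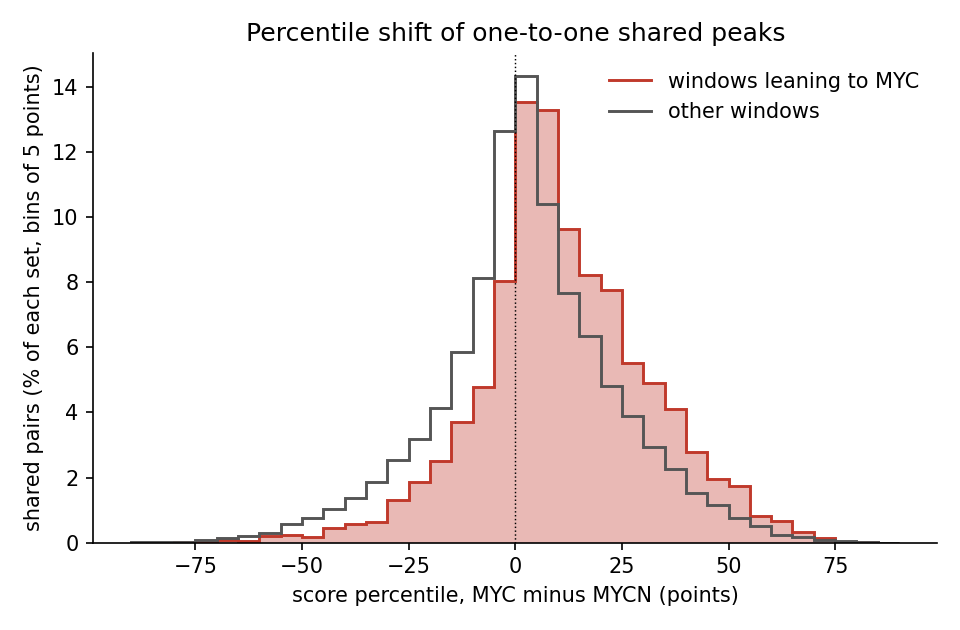
Distribution of the percentile shift, MYC minus MYCN in points, of one-to-one shared pairs in windows leaning to MYC (red, 4486 pairs) and in other windows (grey line, 48425 pairs), as a percentage of each set in bins of 5 points. The red distribution lies to the right, with a median of 9.25 points against 2.01, and both cover positive and negative shifts.

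The MYC list holds more list-only peaks, most of them at its weak end, and a percentile counts them, so the shift over all pairs is not centred on 0. Its median was 2.66 points. Ranked over the paired peaks alone, the median shift was 6.98 points in leaning windows and -0.15 points in other windows. The rank was then higher in MYC for 68.6% of pairs in leaning windows and 49.5% in other windows. Large shifts were also unequal in number. A shift of over 20 points to MYC was found in 30.7% of pairs in leaning windows and 18.4% in other windows, and a shift of over 20 points to MYCN in 5.55% and 12.1%. Over 40 points, the shares to MYC were 8.45% and 4.46%, and the shares to MYCN were 1.20% and 3.19%.

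The shift was found at each level of peak strength. Pairs were divided by the mean of their 2 percentiles into classes of 20 points. In leaning windows the median shift ran from 5.38 points in the weakest class to 19.1, 18.1, 11.0 and, in the strongest class, 4.17 points. In the same classes of the other windows it was 1.01, 6.03, 6.23, 3.54 and 0.54 points. The middle classes had the larger shifts in both sets of windows, and a percentile near 0 or 100 has less room to differ. In the strongest class, 77.1% of 1003 pairs ranked higher in MYC in leaning windows, against 55.6% of 11516 pairs in other windows.

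**Figure D3:**
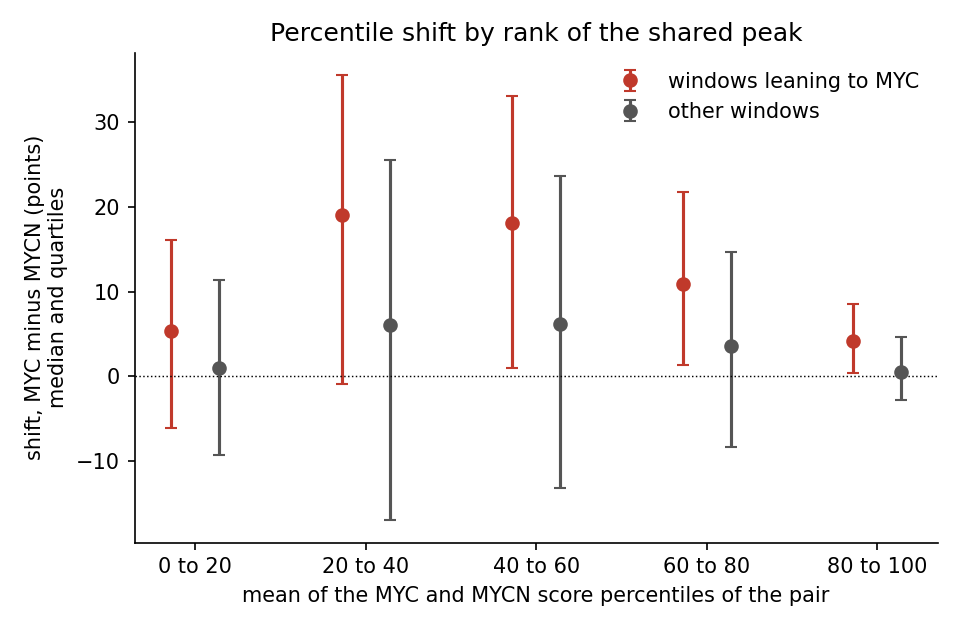
Percentile shift of shared pairs, MYC minus MYCN in points, by the mean of the 2 percentiles of the pair, in windows leaning to MYC (red) and other windows (grey). Points are medians and bars run between the quartiles. The red median is above the grey one in all 5 classes, by 13.1 points at 20 to 40 and by 3.63 points at 80 to 100.

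Shared peaks of leaning windows were also wider in MYC. Width and score come from the same peak calls, so width is not separate evidence for the lean. In leaning windows the MYC peak of a pair had a median width of 407 bp and the MYCN peak one of 332 bp, against 386 bp for MYC and 351 bp for MYCN in other windows. The median ratio of MYC to MYCN width was 1.15 in leaning windows and 1.06 in other windows. The MYC peak was the wider one in 74.9% [73.6 to 76.1] of pairs in leaning windows, against 64.0% of all pairs. Splitting and joining of peaks differed little. In leaning windows 2.32% of shared MYC peaks overlapped 2 or more MYCN peaks and 1.09% of shared MYCN peaks overlapped 2 or more MYC peaks, against 2.201% and 1.118% in other windows.

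The pairs with the highest MYC scores in the leaning windows also ranked high in the MYCN list. The highest MYC score of a pair there was 1041, at chr3:23894966-23895892, with a percentile of 99.96 in MYC and 99.5 in MYCN. The next 4, on chromosomes 16, 8, 16 and 15, had MYC percentiles of 99.9 and MYCN percentiles of 96.5 to 98.7. These 5 pairs were taken by MYC score, so the sign of their shifts is not read.

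Individual pairs differed much more, in both directions. The MYC peak at chr4:11023321-11023718 had a percentile of 87.8 and its MYCN partner one of 7.55, a shift of 80.3 points and the largest in leaning windows. The MYC peak there was 398 bp wide and the MYCN peak 200 bp. Shifts of 78.4 points at chr23:29330733-29331109 and 74.8 points at chr6:41953352-41953702 came next. At chr23:30623286-30624304 the MYC peak was 1019 bp wide and its MYCN partner 200 bp, with a shift of 74.5 points. The fifth, at chr20:32825755-32826180, had a shift of 73.3 points. In the other direction, the MYC peak at chr16:40169585-40169792 had a percentile of 15.5 and its MYCN partner one of 92.0, a shift of -76.5 points. It lay in the same window as a strong MYC-only site named above. The MYC peaks at chr5:2898817-2899042, chr5:31625818-31626032, chr24:27253644-27253865 and chr19:42408720-42409050 had shifts of -71.7, -67.7, -67.2 and -66.5 points.

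Window by window, the shared peaks were shifted the same way as the list-only peaks in nearly all leaning windows. The median shift was above 0 in 109 of the 112 windows (97.3%), against 782 of 1240 other windows with at least 10 list-only peaks and 5 pairs (63.1%). It was above the 2.66 points of all pairs in 107 of 112 leaning windows (95.5%), against 46.2% of all 1352 windows of this kind. The lower quartile was above 0 in 66 leaning windows (58.9%) and in 144 of the 1240 others (11.6%), so in those windows at least 3 in 4 pairs ranked higher in MYC. Per leaning window, a median of 76.7% of pairs ranked higher in MYC, with a range of 25% to 90.5%. The median shifts of leaning windows ran from -6.30 to 24.8 points with a middle of 8.95, and those of the other windows ran from -27.7 to 20.5 with a middle of 1.42. The ranges overlapped widely, and 144 of the other windows had a median shift of 8.95 points or more.

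**Figure D4:**
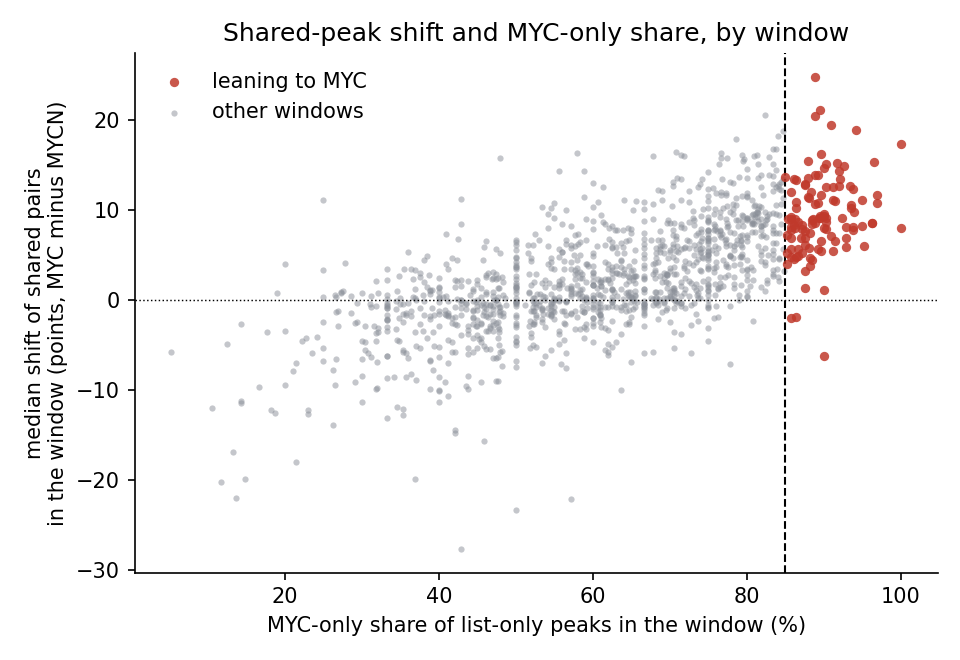
Median percentile shift of shared pairs in a window, MYC minus MYCN in points, against the MYC-only share of its list-only peaks, for 112 windows leaning to MYC (red) and 1240 other windows (grey) with at least 10 list-only peaks and 5 pairs. The dashed line marks 85%. The cloud slopes upward with no step at the line, and 3 red windows lie below 0.

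The largest median shift was 24.8 points, over 28 pairs in the 45 to 46 Mb window of chromosome 6, a window with 16 MYC-only and 2 MYCN-only peaks. The 0 to 1 Mb window of chromosome 5 followed with 21.0 points over 28 pairs, so the window with the most list-only peaks also had the second-largest shift. The 29 to 30 Mb window of chromosome 3 had 20.4 points, the 1 to 2 Mb window of chromosome 22 had 19.4 points over 61 pairs, and the 16 to 17 Mb window of chromosome 18 had 18.9 points. A negative median shift, against the lean, was found in 3 windows. In the 60 to 61 Mb window of chromosome 2 the median shift was -6.30 points over 12 pairs, and this was the short window at the end of its chromosome, in which 3 bins could hold a peak. In the 18 to 19 Mb window of chromosome 7 it was -2.08 points over 8 pairs, and in the 8 to 9 Mb window of chromosome 22 it was -1.89 points over 32 pairs. The next lowest were 1.04 points in the 71 to 72 Mb window of chromosome 7 and 1.35 points in the 46 to 47 Mb window of chromosome 20.

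The shift went with the MYC-only share along its whole range and showed no step at the limit. In windows with a MYC-only share of at least 85%, then 75 to 85%, 65 to 75%, 50 to 65% and under 50%, the median shift of the pooled pairs was 9.25, 7.09, 3.19, 1.04 and -1.69 points. The median width ratio in the same classes was 1.15, 1.11, 1.08, 1.05 and 1.02. Shared MYC peaks per window numbered 41.89, 45.02, 44.88, 40.15 and 34.21, so the least MYC-leaning class was also the sparsest. Across the 1352 windows, which share both libraries, the Spearman correlation of MYC-only share and median shift was 0.70, and within the 112 leaning windows it was 0.31. In the 45 windows at 90% or more, the pooled median shift was 11.1 points, and in the 67 windows from 85% up to 90% it was 8.53 points. A further 126 windows from 80% up to 85%, just outside the limit, had 8.08 points.

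Windows close to the limits had overlapping shifts on either side. The 20 to 21 Mb window of chromosome 3 was at exactly 85%, from 17 MYC-only and 3 MYCN-only peaks, and its median shift was 13.6 points. The next 4 inside, at 85.2% to 85.4%, lay on chromosomes 5, 14, 23 and 15 and had median shifts of 3.92 to 8.96 points. Just outside, the 27 to 28 Mb window of chromosome 17 had 28 MYC-only and 5 MYCN-only peaks, a share of 84.8%, and a median shift of 3.23 points. The next 4 outside, all at 84.6% with 22 and 4 peaks, lay on chromosomes 5, 6, 16 and 20 and had median shifts of 5.68 to 18.8 points. By number of peaks, 3 windows stood at the minimum of 10 list-only peaks, the 60 to 61 Mb window of chromosome 2, the 71 to 72 Mb window of chromosome 7 and the 37 to 38 Mb window of chromosome 16. A single MYCN-only peak more would have taken the chromosome 2 and chromosome 7 windows out. Without the 6 windows under 20 list-only peaks, the shift difference between leaning and other windows was 7.31 points.

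Leaning windows were unevenly placed along the genome. They lay on 21 chromosomes, with none on chromosomes 1, 9, 12 and 17. By share of a chromosome's windows, chromosome 21 led with 8 of 45 (17.8%), before chromosome 23 with 8 of 47 (17.0%), chromosome 4 with 10 of 63 (15.9%) and chromosome 16 with 9 of 59 (15.3%). Chromosomes 10 and 25 had 1 each. On chromosome 4, 9 of the 22 windows before 22 Mb leaned to MYC. From 22 Mb on it was 1 of 41, at 52 to 53 Mb, in the long arm, which is known to be heterochromatic. Chromosome 3 had 7, all between 13 and 34 Mb. The first and last 2 Mb of the peak-covered chromosomes held 6 of the 112 windows (5.36%), against 8.25% of all windows.

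Leaning windows often adjoined one another. Of the 112, 45 (40.2%) touched another leaning window, whereas 14.7% of all windows with at least 10 list-only peaks touched a leaning window. Of the 222 places next to a leaning window that held such a window, 54 (24.3%) were leaning, against 8.27% over the genome. The 45 windows formed 18 groups, 11 of 2 windows, 5 of 3 and 2 of 4, and 67 windows stood alone. The longest groups spanned 4 Mb. The group from 17 to 21 Mb of chromosome 4 had 129 MYC-only peaks and 13 MYCN-only peaks, and the group from 18 to 22 Mb of chromosome 18 had 114 and 13. Their median shifts were 12.7 points over 210 pairs and 9.88 points over 178 pairs. The groups of 3 Mb with the most list-only peaks ran from 30 to 33 Mb of chromosome 20 with 110 and 9, from 25 to 28 Mb of chromosome 15 with 89 and 10, and from 24 to 27 Mb of chromosome 23 with 82 and 7. In the chromosome 23 group 86.4% of 110 pairs ranked higher in MYC and the median shift was 14.9 points. The pooled median shift was positive in all 18 groups, the lowest 7.46 points, from 17 to 20 Mb of chromosome 21, and the highest 14.9 points. The share of leaning windows that adjoined another moved with the settings, from 14.3% with reciprocal overlap of 50% to 68.1% with a limit of 80%.

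Beyond direct contact, 4 stretches held 5 or more leaning windows with no step of more than 3 Mb from each to the next, a rule chosen after the values were seen. The stretch on chromosome 23 ran from 24 to 37 Mb with 7 leaning windows, and that on chromosome 16 ran from 37 to 48 Mb, also with 7. The stretches from 31 to 42 Mb of chromosome 7 and from 16 to 22 Mb of chromosome 18 had 5 each. The windows between them were under the limit. Their pooled MYC-only shares were 80.2% on chromosome 23, 77.8% on chromosome 16, 77.9% on chromosome 7 and 75% on chromosome 18. Single windows between ran from 64.7% to 84.4% on chromosome 23, 75% to 81.8% on chromosome 16 and 71.0% to 83.3% on chromosome 7. The lowest of these was close to the 64.1% over all windows. On chromosome 23 the median shift of shared pairs was 12.5 points in the leaning windows of the stretch and 10.3 points in the windows between, and on chromosome 18 it was 11.7 and 8.72 points. On chromosome 16 it was 9.56 points in the leaning windows and 10.3 points in those between, and on chromosome 7 it was 8.58 and 11.3 points, so there the windows between had the larger median.

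Pooled over chromosomes and over both sides, the lean was weaker in windows farther from a leaning window, out to about 5 Mb. The values are averages of many windows and give no slope for a single domain. Each window that was not leaning was placed by its distance to the nearest leaning window of its chromosome. The MYC-only share was 73.6% [72.3 to 74.9] at 1 Mb, 68.1% at 2 Mb, 63.5% at 3 Mb, 64.8% at 4 Mb and 58.3% [55.6 to 61.0] at 5 Mb. Farther than 10 Mb it was 54.7% [53.6 to 55.8], and on the 4 chromosomes with no leaning window it was 58.2% [56.9 to 59.5]. The last value pools windows of unlike shares, up to 84.8% on chromosome 17. The median shift of shared pairs was 7.96 points at 1 Mb, 5.20 at 2 Mb, 3.40 at 3 Mb, 2.48 at 4 Mb, 1.01 at 5 Mb and 0.18 beyond 10 Mb. The windows at 1 Mb thus had a shift close to the 9.25 points of the leaning windows, although the rule holds their MYC-only share under 85% or their list-only peaks under 10.

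**Figure D5:**
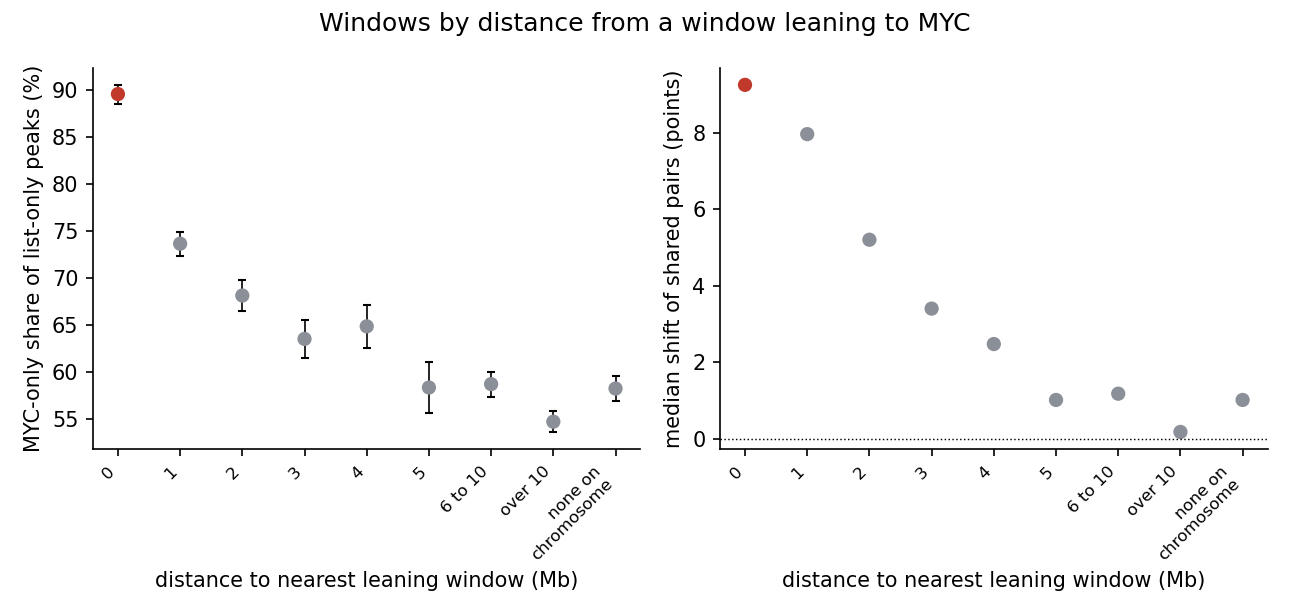
MYC-only share of list-only peaks (left, in %, with 95% Wilson intervals for counting error) and median percentile shift of shared pairs (right, MYC minus MYCN in points) by distance of a window to the nearest window leaning to MYC, which is itself at 0 (red). Both measures fall over the first 5 Mb, the share to 58.3% and the shift to 1.01 points at 5 Mb.

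Within leaning windows, the median shift of shared pairs was similar at all distances from a MYC-only peak. The median shift was 9.03 points for pairs less than 5 kb from the nearest MYC-only peak, 9.55 at 5 to 20 kb, 8.64 at 20 to 50 kb and 9.11 at 50 kb or more. In other windows the same classes had medians of 2.95, 3.76, 1.73 and -0.57 points. The other windows vary widely in MYC-only share and were pooled, so distance was not separated there from the lean of the window. The 293 pairs of leaning windows at 50 kb or more ranked higher in MYC in 70.6% of cases, and the 10001 such pairs of other windows did so in 47.8%.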

How the data were processed

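ATAC-seq was done on 1 MYC and 1 MYCN library. Per the submitters' processing notes, the build was danRer7, the aligner Bowtie2 2.2.1 and the peak caller MACS2 2.1.0. Settings, Tn5 read shifting, duplicate removal and any control are not given in the sources used here. A list of peaks called separately was deposited for each library, with a whole-number score per peak whose meaning no header states (smallest value 13 in both).

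Mitochondrial peaks (2 MYC, 3 MYCN) were left out. An overlap of 1 bp or more made a peak shared, computed with pandas 2.3.3 and numpy 2.4.6 (Python 3.11.15) and checked against bedtools 2.31.1 and on simulated data. Intervals used scipy 1.17.1 and figures matplotlib 3.10.9. Percentiles were taken within each list over chromosomes 1 to 25, with ties averaged, and a pair was placed by the midpoint of its MYC peak. With 1 library per group no test was run.

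The windows were chosen with earlier results of these data known. Regions were named by rule: the 10 windows with the most list-only peaks, the 5 longest groups, the 10 highest-scoring MYC-only and 5 MYCN-only peaks, the 5 pairs shifted most each way, windows next to the limits, and the 5 largest and 5 smallest window shifts. Stretches, bins, distance and strength classes, series and the highest-scoring pairs were added after the values were seen. Alternatives varied the overlap, list length, score, window, limits, percentile and pairing. Coordinates are danRer7, with starts counted from 1.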

Additional observations from a re-analysis of the deposited data

How the results depend on the processing

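Under all 12 alternatives the median shift of shared pairs was higher in leaning windows than in other windows, by 5.47 to 9.08 points, but the number of leaning windows depended strongly on the settings. The alternatives are not independent of the main result. The percentile and pairing alternatives used the same 112 windows. Reciprocal overlap, the trimmed list, the limit of 90% and the minimum of 20 list-only peaks kept only windows among the 112. With reciprocal overlap of 50% only 14 windows were kept, the shift difference was 5.47 points, 14.3% of windows adjoined another, the MYC-only percentile was 22.9, shared MYC peaks numbered 30.4 per Mb and the width ratio was 1.11. With the MYC list trimmed to the length of the MYCN list these were 36 windows, 19.4% adjoining, percentile 24.2 and 38.6 shared peaks. All 36 and all 14 were among the 112, which was close to fixed by the trimming for the 36 and by the stricter overlap for the 14. With peaks at or above the median score of their list there were 209 windows, a difference of 9.08 points, 56.5% adjoining, 22.3 shared peaks and a width ratio of 1.102. In that setting a site above the median in MYC and below it in MYCN counted as MYC-only. The scores thus entered the choice of windows, and the 9.08 points are not independent of it. Windows of 0.5 Mb gave 305 windows, of which 84.5% had a median shift above that of all pairs, with 44.8 shared peaks and a ratio of 1.13. Windows of 2 Mb gave 41 windows, 8.40 points, 61.0% adjoining and 40.2 shared peaks. A limit of 80% gave 238 windows, 68.1% adjoining, 43.3 shared peaks and a ratio of 1.13, and a limit of 90% gave 45 windows, 8.68 points, 24.4% adjoining and 39.1 shared peaks. Shared MYC peaks per Mb were 44.3 with windows shifted by 0.5 Mb (ratio 1.13), 44.9 when peaks within 500 bp counted as shared, and 43.2 with at least 20 list-only peaks. The first of these kept 129 windows, the second 136 and the third 106. The windows kept were not always the same ones. With peaks at or above the median score, 68 of 209 (32.5%) had their centre in 1 of the 112. For windows of 0.5 Mb this was 142 of 305 (46.6%). It was 57 of 129 (44.2%) with windows shifted by 0.5 Mb, whose centres fall on borders of the unshifted windows. With peaks within 500 bp counted as shared it was 107 of 136 (78.7%). The share of leaning windows above the median of all pairs was 84.5% to 97.6% throughout. The cause of these differences was not tested. No paired analysis was possible because there was a single library for each transgene, and no replicate could be left out. Unknown read depth limits every count.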
